A study of Homo sapiens with 19 samples.

Results

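Kinesins are motor proteins that walk along microtubules by hydrolysing ATP. One set of them carries vesicles, organelles, cilia components and RNA through the cell, and another set builds the mitotic spindle, moves chromosomes and completes cytokinesis. Many are alternatively spliced in the stalk and tail, the parts that bind cargo and partner proteins. The genes described here were all protein-coding genes of the GENCODE 29 annotation whose symbol is KIF followed by a digit, together with KIFC1, KIFC2 and KIFC3. This gave 43 genes. By the kinesin nomenclature 42 of them are motors, while KIF1BP is named after its binding to a kinesin and is itself no motor. KIF2B and KIF4B have no annotated intron, so 41 genes had values, among 22760 gene names with spliced reads in the series, and 39 passed the filter on low counts. KIF19 and KIF26B had reads but were not tested.

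The study used Cas13d, an RNA-guided RNA nuclease, to lower RBFOX2, a splicing regulator, as a whole or by isoform. The knockdown series comprised 14 libraries of HUES66, a human embryonic stem cell line, all given doxycycline at 1 µg/ml. These were 3 control libraries (labelled wild type), 3 of total RBFOX2 knockdown, 4 of N-short isoform knockdown and 4 of N-long isoform knockdown, taken at 24, 48 and 96 hr. At 24 hr the control exists in replicate 2 alone and the total knockdown in replicate 1 alone, and at 48 and 96 hr each group has 1 library. Untreated libraries, 1 each, came from HUES66, from HEK293 (a human embryonic kidney line) and from A375 (a human melanoma line), the last also as nuclear and cytoplasmic fractions. The labels do not say whether libraries of a group came from separate cultures, so a p-value measures the spread between these libraries, which may be technical.

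Each library was deposited as a list of splice junctions with the number of reads across each. Libraries held 6499183 to 27937149 junction reads, and the doxycycline-treated ones 9622841 to 14625040. A gene's level is given as its annotated-junction reads per 1000000 such reads (CPM), and levels of different genes are compared only as CPM per intron. A cassette exon is an internal exon that is either included or skipped, and its inclusion is the percentage of inclusion among inclusion and skipping reads. Bulk RNA cannot tell fewer expressing cells from less RNA per cell. Stem cell markers separated HUES66 from the other lines, with sums of 3972 CPM in HUES66, 50.8 in HEK293 and 10.5 in A375. POU5F1 alone was at 1079 CPM in HUES66 and at 0.634 CPM in A375. Listed HEK293 markers differed less, with sums of 74.3 CPM in HEK293, 42.2 in HUES66 and 34.1 in A375. SOX10, a melanocyte lineage factor, was at 107 CPM in A375 and had no reads in HEK293, while the pigment gene PMEL was at 0.507 CPM in A375 and 50.6 CPM in HUES66. RBFOX2 was lower after total knockdown (log2 fold change -0.82 ± 0.08 SE, edgeR adjusted p = 1.12e-08) and after N-long knockdown (-0.57 ± 0.07, edgeR adjusted p = 3.43e-05). After N-short knockdown its sum over all junctions differed by -0.06 ± 0.07 (edgeR adjusted p = 0.998).

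Of 87 cassette exons of the kinesin genes with any reads, 19 exons in 11 genes had enough reads in both forms to be tested, and 17 of these 19 overlap coding sequence. Not shown, though they passed in a test described below, are exons of KIF23 (312 nt), KIF1A (276 nt), KIF1C (34 nt) and KIF20A (199 nt). The lengths of the KIF1C and KIF20A exons are not multiples of 3. The exons shown are 129 nt or shorter, and their lengths are all multiples of 3, so that skipping keeps the reading frame. They are shown 5′ to 3′ on the gene's strand from GENCODE 29 transcripts (GRCh38), with the exon in capitals and the last and first 15 bases of the neighbouring exons in lower case. The first set holds the exons of KIF21A, a kinesin-4 that slows microtubule growth at the cell cortex, with the matching exon of its paralogue KIF21B.
KIF21A 21 nt exon, chr12:39330242-39330262, minus strand: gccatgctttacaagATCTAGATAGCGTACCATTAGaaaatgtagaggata
KIF21A 129 nt exon, chr12:39318073-39318201, minus strand: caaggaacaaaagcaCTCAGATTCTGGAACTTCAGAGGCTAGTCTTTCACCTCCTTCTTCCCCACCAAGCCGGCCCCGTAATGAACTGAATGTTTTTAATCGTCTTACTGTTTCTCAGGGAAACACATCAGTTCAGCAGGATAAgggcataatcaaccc
KIF21A 39 nt exon, chr12:39315932-39315970, minus strand: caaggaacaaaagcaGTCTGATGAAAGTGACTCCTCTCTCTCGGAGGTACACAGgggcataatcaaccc
KIF21B 39 nt exon, chr1:200983056-200983094, minus strand: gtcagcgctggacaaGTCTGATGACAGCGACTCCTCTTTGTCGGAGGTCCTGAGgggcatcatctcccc
The second set holds exons that differed between cell lines or between library sets in KIF13A (a kinesin-3 of endosomes), KIF1A (a kinesin-3 of synaptic vesicle precursors) and KIF3A (a kinesin-2 of cilia).
KIF13A 39 nt exon, chr6:17789872-17789910, minus strand: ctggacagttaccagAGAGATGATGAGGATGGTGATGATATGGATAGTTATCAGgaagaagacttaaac
KIF13A 105 nt exon, chr6:17771114-17771218, minus strand: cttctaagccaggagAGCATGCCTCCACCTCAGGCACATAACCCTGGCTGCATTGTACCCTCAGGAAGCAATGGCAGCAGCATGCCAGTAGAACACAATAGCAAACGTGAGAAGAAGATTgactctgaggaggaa
KIF1A 27 nt exon, chr2:240734719-240734745, minus strand: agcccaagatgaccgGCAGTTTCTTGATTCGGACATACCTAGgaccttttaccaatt
KIF3A 9 nt exon, chr5:132706451-132706459, minus strand: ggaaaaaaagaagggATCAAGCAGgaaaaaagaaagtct

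The first question was whether kinesin splicing changed when RBFOX2 was lowered. One kinesin exon, the 21 nt exon of KIF21A, passed the test after total knockdown, where it was skipped more often. Its inclusion in the controls was 34.9% at 24 hr, 71.1% at 48 hr and 34.8% at 96 hr. In the total knockdown libraries it was 13% at 24 hr, 26.2% at 48 hr and 25% at 96 hr. All 3 knockdown values lay below all 3 control values, but the 24 hr values come from different replicate sets. The log2 odds ratio was -1.75 ± 0.37 (SE, edgeR adjusted p = 0.00494), and the mean difference within the 48 and 96 hr sets was -27.4 points ± 24.8 (SD, n = 2 sets). The difference was -44.9 points at 48 hr and -9.85 points at 96 hr. Across the series 1.28% of 6879 exons passed in this comparison (0.291% higher and 0.989% lower), against 1 of the 19 kinesin exons. The call rests on the 48 hr libraries: without the 48 hr control the adjusted p was 0.144 (log2 odds ratio -1.42), and without the 48 hr total knockdown it was 0.537 (-1.15). With the 48 and 96 hr sets alone, an alternative chosen after seeing the data, it was 0.0507, and with limma on log2 ratios it was 0.275.

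The same KIF21A exon did not pass in the isoform knockdowns. After N-long knockdown inclusion was 18.6% and 17.0% in the 24 hr replicates, 46.9% at 48 hr and 27.8% at 96 hr. After N-short knockdown it was 29.6% and 36.2% at 24 hr, 63.0% at 48 hr and 37.5% at 96 hr. Within every one of the 4 sets the N-long library was lower than the N-short library, with a mean difference of -14 points ± 4.42 (SD, n = 4 sets), but the edgeR adjusted p was 0.415 (unadjusted 0.00297). Against the control the N-long difference was -16.4 points ± 8.65 (SD, n = 3 sets), with an edgeR adjusted p of 0.336, and the N-short difference was -1.39 points ± 5.83 (edgeR adjusted p = 1). With the untreated HUES66 library taken as the control of the 24 hr replicate 1 set, the N-long adjusted p was 0.00827. Whether that library is such a control cannot be told from the labels. Each library's value rests on 45 to 72 reads. At 48 hr the 95% Wilson interval was 56.6% to 82.3% in the control and 16.8% to 38.4% in the total knockdown.

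**Figure D1:**
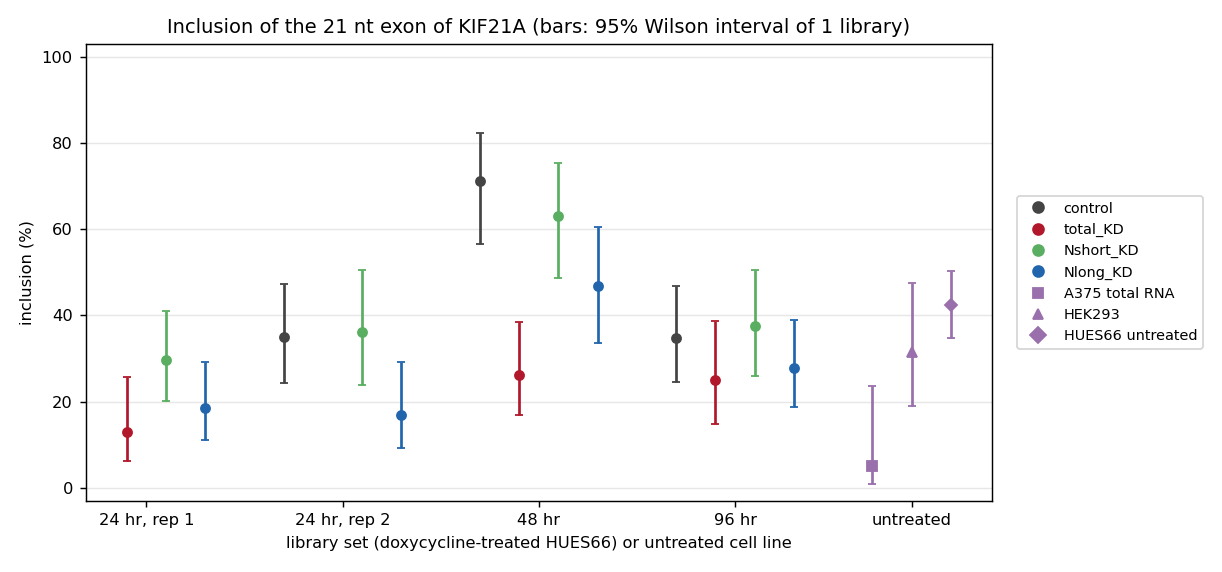
Inclusion of the 21 nt exon of KIF21A in percent, 1 point per library with its 95% Wilson interval (counting error only), by library set and group. The total knockdown points lie between 13% and 26.2%, below the control points at 34.8% to 71.1%, and the 48 hr control stands above the other controls.

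In the authors' deposited tables of control against knockdown this exon was the only kinesin event called, of 159 to 236 kinesin events per table. Called means an adjusted p under 0.05 and an inclusion difference of at least 0.1. The share called among all events was 0.0518%, 0.118% and 0.0837% for total knockdown at 24, 48 and 96 hr. For the isoform knockdowns it was 0.00218% to 0.0266%. In the authors' deposited table for total knockdown at 48 hr the control exceeded the knockdown by 0.455 (adjusted p = 0.00456). In the authors' deposited table for N-long knockdown at 24 hr the excess was 0.224 (adjusted p = 0.0381). The authors' deposited tables gave 0.267 for total knockdown at 24 hr (adjusted p = 0.0773) and 0.121 at 96 hr (adjusted p = 0.897). For the 39 nt exon of KIF21B, which had too few reads for the edgeR test, they gave 0.061 for total knockdown at 24 hr. The authors' deposited values for that exon were 0.477 at 48 hr (adjusted p = 0.38) and 0.542 at 96 hr (adjusted p = 0.417). These tables come from the same libraries and are no independent support.

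The other 18 kinesin exons passed in none of the 4 knockdown comparisons. Among all exons the share that passed was 0.0145% for N-short knockdown, 0.465% for N-long knockdown and 0.363% for N-long against N-short. At an unadjusted p under 0.05, edgeR listed 2 kinesin exons for total knockdown, 0 for N-short, 4 for N-long and 1 for N-long against N-short, out of 19. Among all 6879 exons the same cut listed 535, 290, 376 and 344. limma listed 0 kinesin exons at an adjusted p under 0.05 in each of the 4 comparisons, and its counts over all exons are not given here. The median log2 odds ratio of the 19 exons after total knockdown was -0.12, beside 0.06 for all exons. The second kinesin exon with a small unadjusted p after total knockdown was a 276 nt exon of KIF1A. Its inclusion was 21.1%, 12.4% and 18.9% in the controls at 24, 48 and 96 hr and 16.3%, 4.43% and 12.6% in the total knockdowns. The difference was -7.15 points ± 1.15 (SD, n = 2 sets), with an edgeR adjusted p of 0.367. After N-long knockdown the same exon differed by -6.18 points ± 3.25 (SD, n = 3 sets, edgeR adjusted p = 0.609).

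Gene levels of kinesins moved little with the knockdowns. After total knockdown 3 of 39 kinesin genes passed, against 2.20% of 13628 genes (1.01% higher and 1.19% lower). KIF1A, which carries synaptic vesicle precursors along axons, was at 573, 678 and 489 CPM in the controls at 24, 48 and 96 hr. In the total knockdowns it was at 691, 746 and 574 CPM, higher than the control of the same set at 48 and 96 hr. Its log2 fold change was 0.19 ± 0.03 (SE, edgeR adjusted p = 0.000555).

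KIF4A, a chromosome-bound kinesin of the anaphase midzone, fell. It was at 165, 165 and 185 CPM in the controls and at 159, 149 and 155 CPM in the total knockdowns. The log2 fold change was -0.19 ± 0.04 (SE, edgeR adjusted p = 0.00918). Without the 96 hr control the KIF4A adjusted p was 0.124, and without the 96 hr total knockdown it was 0.0907. KIF15, a spindle kinesin, passed narrowly, with a log2 fold change of 0.17 ± 0.05 (SE, edgeR adjusted p = 0.0497). It was at 168, 143 and 173 CPM in the controls and at 171, 183 and 181 CPM in the total knockdowns. The 48 hr control at 143 CPM was the lowest value of KIF15 in the 14 libraries, and without it the log2 fold change was 0.11 (edgeR adjusted p = 0.426). Without the 48 hr total knockdown it was 0.10 (edgeR adjusted p = 0.476). The KIF15 call was also lost with DESeq2 (adjusted p = 0.0606), and with no term for the replicate set both KIF15 and KIF4A missed the threshold (edgeR adjusted p = 0.422 and 0.266).

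The division kinesins, 13 genes that act in spindle assembly, chromosome movement or cytokinesis, had 12 members tested. KIF2A, which acts on interphase and spindle microtubules alike, was counted with the other motors. After total knockdown 1 of them rose (KIF15), 1 fell (KIF4A), and the list's median log2 fold change was -0.05, beside -0.000193 for all genes. Of the 26 other motors tested 1 rose (KIF1A) and none fell, with a median of -0.02. Among mitosis genes that are not kinesins 4 of 17 fell and 0 rose, with a median of -0.10. Of the partners and cargo adaptors of kinesins 1 of 17 fell, and of the dynein and dynactin genes, which form the opposing motor, 1 of 11 fell.

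No kinesin gene passed after N-short knockdown, after N-long knockdown or in N-long against N-short. Among all genes 0, 0.0220% and 0.0147% passed in these comparisons. At an unadjusted p under 0.05, edgeR listed 2, 5 and 3 of the 39 kinesin genes and 537, 594 and 693 of all 13628 genes. DESeq2 called 0 kinesin genes in each comparison at an adjusted p under 0.05. KIF5C, a neuronal form of the kinesin-1 heavy chain, had the lowest adjusted p of the kinesins after N-long knockdown (edgeR adjusted p = 0.124, log2 fold change 0.18). It was at 220, 223, 224 and 205 CPM in the N-long libraries, at 211, 195 and 179 CPM in the controls and at 187, 217, 206 and 182 CPM in the N-short libraries. Without a filter on low counts, KIF5C and KIF15 passed after N-long knockdown and KIF5C passed against N-short. Counts over all genes with DESeq2 or without that filter are not given here.

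The second comparison set the 4 libraries at 96 hr against the 4 at 48 hr, 1 pair for each group. Time and library set cannot be told apart, since each time point is 1 set. Between the sets 33 of 39 kinesin genes passed, 20 higher and 13 lower at 96 hr, against 59.2% of 13415 genes (29.2% higher and 29.9% lower). In absolute terms the median log2 change was 0.26 for kinesin genes and 0.28 for all genes.

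The division kinesins had mostly one sign. At 96 hr 11 of 12 were higher and 1 lower, with a median log2 fold change of 0.19, beside -0.01 for all genes. KIF2A, counted with the other motors, did not pass (0.03 ± 0.03 SE, edgeR adjusted p = 0.394). KIF18A, which limits chromosome oscillation at metaphase, was at 55.5, 59.3, 62.9 and 56.1 CPM at 48 hr and at 78.9, 66.1, 78.9 and 70.8 CPM at 96 hr, in the order control, total, N-short and N-long. The log2 fold change was 0.39 ± 0.05 (SE, edgeR adjusted p = 8.97e-07). KIF11, the kinesin-5 that pushes spindle poles apart, rose by 0.30 ± 0.03 (edgeR adjusted p = 8.09e-09), from 260 to 280 CPM at 48 hr to 303 to 335 CPM at 96 hr. The exception was KIF2C, a microtubule depolymerase of the centromere, which fell by 0.30 (log2 fold change -0.30 ± 0.03, edgeR adjusted p = 2.09e-08), from 218 to 230 CPM to 160 to 180 CPM. Of the 17 mitosis genes that are not kinesins 7 rose and 3 fell, with a median of 0.06. The summed level of the division kinesins was 2015 to 2086 CPM at 48 hr and 2078 to 2228 CPM at 96 hr, so these sums overlapped.

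Among the other motors 8 of 26 were higher and 12 lower at 96 hr, and the largest rise was in KIF26A, a kinesin-11 without motor ATPase activity. KIF26A was at 24.0 to 28.0 CPM at 48 hr and at 47.6 to 56.8 CPM at 96 hr, a log2 fold change of 1.08 ± 0.07 (SE, edgeR adjusted p = 6.65e-13). Its level at 24 hr depended on the replicate set, with 56.0 to 58.7 CPM in replicate 1 and 32.8 to 38.0 CPM in replicate 2, so that replicate 1 lay nearer to the 96 hr set. KIF21A rose from 131 to 135 CPM to 173 to 187 CPM (log2 fold change 0.49 ± 0.04, edgeR adjusted p = 1.94e-11). KIF3B, the partner of KIF3A in the ciliary motor, rose from 19.5 to 23.9 CPM to 26.4 to 30.4 CPM (0.40 ± 0.07, edgeR adjusted p = 4.54e-05), while KIF3A itself did not pass (0.07 ± 0.06 SE, edgeR adjusted p = 0.344).

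KIF1BP, which binds KIF1A and KIF1B and is no motor, rose from 28.2 to 30.0 CPM to 37.5 to 39.1 CPM (log2 fold change 0.44 ± 0.06, edgeR adjusted p = 1.98e-06). KIF1A and KIF1B went the other way, but the 7 genes of their subfamily, kinesin-3, were divided, with 3 called higher and 4 lower at 96 hr. KIF1A was at 651 to 746 CPM at 48 hr and 489 to 574 CPM at 96 hr, with a log2 fold change of -0.34 ± 0.03 (edgeR adjusted p = 3.4e-11). KIF1B, which carries mitochondria and synaptic vesicle precursors, was at 421 to 431 CPM and 335 to 358 CPM, with -0.25 ± 0.03 (edgeR adjusted p = 3.36e-08). In neither gene did the 2 time points overlap, but the share of all genes without overlap was not counted.

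KIF27, a kinesin-4 related to the Hedgehog regulator KIF7, fell from 40.0 to 44.1 CPM to 21.5 to 23.7 CPM (log2 fold change -0.81 ± 0.07, edgeR adjusted p = 1.77e-10). KIF7 itself did not pass (-0.06 ± 0.07, edgeR adjusted p = 0.472). KIFC3, a minus-end-directed kinesin-14, fell from 12.3 to 16.3 CPM to 7.88 to 8.77 CPM (-0.66 ± 0.11, edgeR adjusted p = 1.54e-05). KIF17, a kinesin-2 of dendrites and cilia, was at 7.82 to 9.86 CPM and 3.52 to 6.73 CPM (-0.69 ± 0.14, edgeR adjusted p = 0.000144). KIF13B was at 73.7 to 81.0 CPM and 48.6 to 58.8 CPM (-0.47 ± 0.05, edgeR adjusted p = 1.86e-08). KIF16B, a motor of early endosomes, was at 41.8 to 54.3 CPM and 33.4 to 37.7 CPM (-0.31 ± 0.06, edgeR adjusted p = 0.00018). In KIF27, KIFC3, KIF17, KIF13B and KIF16B all 4 values at 96 hr lay below all 4 at 48 hr. These genes were named for being among the 8 largest falls that passed, so this separation adds no support. Of all genes 59.2% passed in edgeR between these sets. The share of all genes whose values separate in this way was not counted.

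The remaining named genes had few reads. KIF25 was at 0.806 to 1.21 CPM at 48 hr and at 0 to 0.384 CPM at 96 hr, with a log2 fold change of -2.22 ± 0.50 (edgeR adjusted p = 0.000476). KIF12 was at 1.61 to 4.51 CPM and 1.03 to 1.76 CPM, and its call (-0.87 ± 0.28, edgeR adjusted p = 0.01) was lost without either control library (edgeR adjusted p = 0.247 and 0.233). KIF9, a motor of motile cilia, was at 1.77 to 3.24 CPM and 3.60 to 4.61 CPM (0.62 ± 0.21, edgeR adjusted p = 0.0123). KIF24, a centriolar kinesin, was at 6.72 to 9.46 CPM and 7.75 to 12.3 CPM (0.34 ± 0.12, edgeR adjusted p = 0.0235). DESeq2 put KIF12, KIF9 and KIF24 at adjusted p of 0.0917, 0.0834 and 0.141.

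Other lists were read in the same sets. The summed level of the pluripotency markers was 3776 to 3949 CPM at 48 hr and 4302 to 5140 CPM at 96 hr. Among the 9 pluripotency genes tested 5 rose and 2 fell. The early neural markers summed to 6.84 to 9.35 CPM and 8.64 to 17.2 CPM, and the mesoderm or endoderm markers to 0.588 to 1.29 CPM and 0.554 to 2.16 CPM. In both lists the sums overlapped between the times. The 2 early neural genes tested rose, and the 1 mesoderm or endoderm gene tested did not pass. Of the partners and adaptors of kinesins 4 of 17 rose and 4 fell, and of the dynein and dynactin genes 3 of 11 rose and 3 fell. The part of cell state in the kinesin values was not tested.

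**Figure D2:**
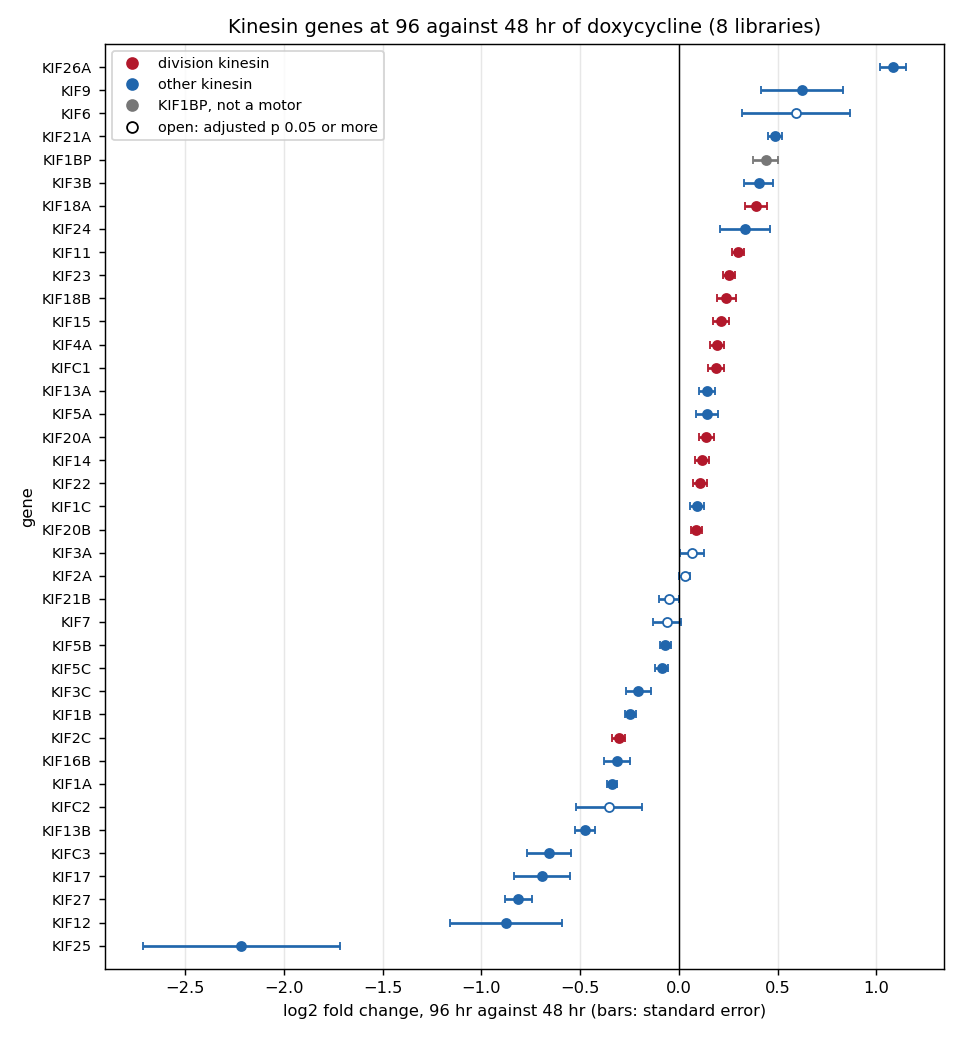
Log2 fold change of 39 kinesin genes at 96 hr against 48 hr (x axis), with the standard error from the edgeR fit on 8 libraries, coloured by role and open where the adjusted p was 0.05 or more. The division kinesins lie between 0.09 and 0.39 apart from KIF2C at -0.30, while the other motors spread from -2.22 to 1.08.

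Kinesin splicing also differed between the 48 and 96 hr sets. Of 19 kinesin exons 8 passed, 4 more and 4 less included at 96 hr, against 15.3% of 6871 exons (7.84% more and 7.47% less). KIF23, the kinesin-6 of the central spindle, is known to be made in a longer and a shorter form. Its 312 nt exon (chr15:69440768-69441079) was included at 57.0% to 64.2% at 48 hr and at 27% to 31.6% at 96 hr. The difference was -32.0 points ± 3.75 (SD, n = 4 pairs), with a log2 odds ratio of -1.94 ± 0.18 (edgeR adjusted p = 9.26e-09). The libraries at 24 hr had 28.9% to 33.1% in replicate 1 and 38.6% to 44.6% in replicate 2, and the untreated HUES66 had 33.1%. The 48 hr set therefore stood above the 24 and 96 hr sets alike, and the values formed no steady course with time.

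The exons of KIF21A moved in opposite directions. The 129 nt exon was included at 20.0% to 31.7% at 48 hr and at 49.0% to 64.0% at 96 hr, a difference of 28.3 points ± 10.6 (SD, n = 4 pairs, edgeR adjusted p = 0.000536). The 21 nt exon was at 26.2% to 71.1% and 25% to 37.5%, a difference of -20.5 points ± 14.7 (SD, n = 4 pairs, edgeR adjusted p = 0.00432). At 24 hr the 129 nt exon had 34.3% to 63.8%, again above the 48 hr set. The 39 nt exon, which shares both neighbouring exons with the 129 nt exon, did not pass and was included at 6.50% over all 19 libraries. The matching exon of KIF21B has the same base at 32 of its 39 positions and was included at 59.0% over all libraries, on 315 reads, too few for the test.

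Among the transport kinesins, the 27 nt exon of KIF1A was included at 7.28% to 11.1% at 48 hr and at 13.8% to 17.9% at 96 hr. The difference was 7.20 points ± 3.12 (SD, n = 4 pairs, edgeR adjusted p = 0.00232). At 24 hr it was at 13.7% to 17.5% in replicate 1 and 7.59% to 9.38% in replicate 2, so the 24 hr replicates did not overlap either. The 276 nt exon of KIF1A rose from 4.43% to 12.4% to 11.8% to 19.5% (6.56 points ± 3.33, SD, n = 4 pairs, edgeR adjusted p = 0.028). The 9 nt exon of KIF3A fell from 86.7% to 100% to 59.1% to 84.6% (-21.9 points ± 15, SD, n = 4 pairs, edgeR adjusted p = 0.0215), on 17 to 30 reads per library. A noncoding 34 nt exon of KIF1C was at 0% to 4.00% and 6.67% to 25.9% (edgeR adjusted p = 0.0182). A 199 nt exon of KIF20A, a motor of cytokinesis, was at 98.4% to 100% and 93.6% to 98.4% (edgeR adjusted p = 0.0491).

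With limma on log2 ratios 0 of the 8 exons passed, the KIF23 exon coming nearest at an adjusted p of 0.0514. The share of all exons that limma called is not given here. In edgeR the calls of KIF1C, KIF3A, KIF20A, the 276 nt exon of KIF1A and the 21 nt exon of KIF21A were each lost when 1 or more single libraries were left out.

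**Figure D3:**
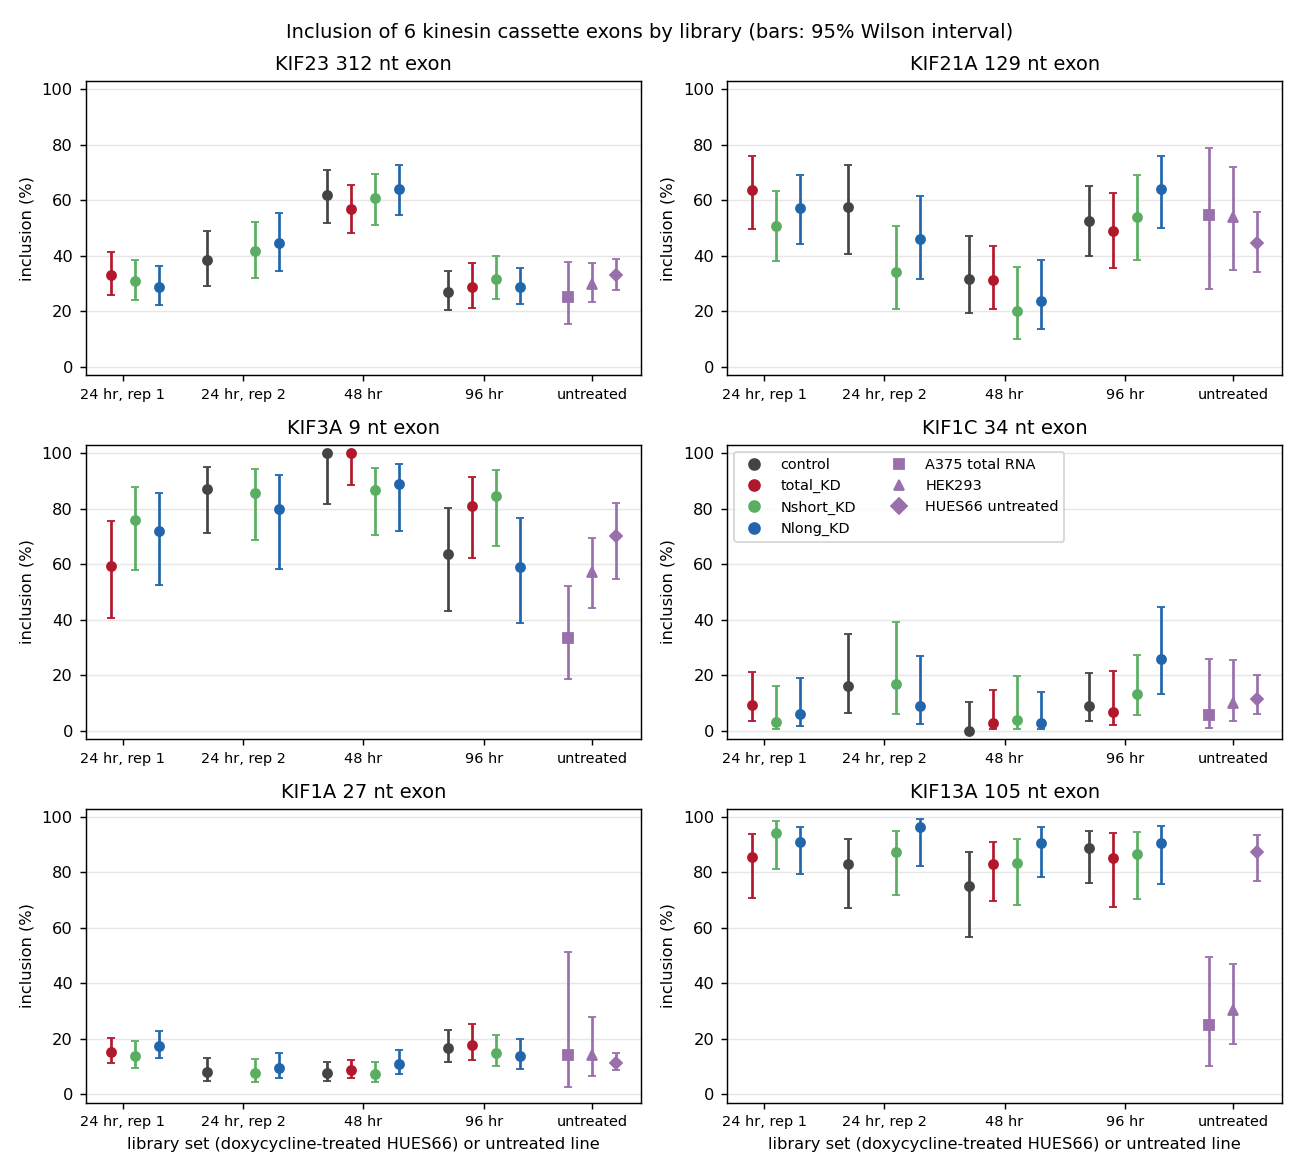
Inclusion of 6 kinesin exons in percent, 1 point per library with its 95% Wilson interval, by library set and group, with the untreated lines at the right. The KIF23 312 nt exon stands at 57.0% to 64.2% in the 48 hr set and at or below 44.6% elsewhere, while the KIF13A 105 nt exon stands at 75% to 96.4% in all HUES66 libraries and at 25% and 30.6% in A375 and HEK293.

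KIF1B offered no cassette exon with enough reads of both forms, but its choice between 2 coding forms could be read from junctions. This was chosen after the values were seen and has no test. From the donor of the intron that starts at chr1:10297247, reads went either to the acceptor of the terminal exon of the short form (intron end 10303162) or to the next exon of the long form, 16880 bases further on. The short form took 72.9% of these reads in A375, 46.2% in HEK293 and 41.9% in untreated HUES66 (95% Wilson intervals 59.0% to 83.4%, 35.5% to 57.1% and 36.2% to 47.9%). In the treated HUES66 libraries it took 37.1% to 39.1% at 24 hr in replicate 1 and 18.3% to 25.8% in replicate 2, then 21.3% to 32.7% at 48 hr and 34.3% to 46.3% at 96 hr. Another acceptor of KIF1B, 78 bases upstream of the main one, took 19.8% in untreated HUES66, 2.08% in A375 and 3.19% in HEK293. In the treated HUES66 libraries it took 14.3% to 28.0%.

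The third comparison was between cell lines, with 1 library per line and no replicate check, so intervals cover counting error only. Per intron, KIF5B, the ubiquitous heavy chain of kinesin-1, was the highest kinesin in all 3 lines, at 19.7 CPM per intron in A375, 29.5 in HEK293 and 16.1 in HUES66. KIF11 and KIF2A, a depolymerase of interphase and spindle microtubules, were among the highest 6 in each line. KIF1A was at rank 6 in HUES66, at 11.4 CPM per intron, against 0.546 in A375. The counts that follow cover the 39 kinesins with at least 20 reads over the 3 lines. Each is given beside the share of all such genes, by line and direction.

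HUES66 was at least 2-fold above both other lines in 5 kinesins (KIF1A, KIF5A, KIF12, KIF17 and KIF26A), against 11.9% of 14357 genes. KIF1A was at 559 CPM in HUES66, 160 in HEK293 and 26.7 in A375. HUES66 exceeded A375 by 20.9-fold (95% counting interval 18.2 to 24.1) and HEK293 by 3.49-fold (3.30 to 3.68). KIF26A was at 55.1, 4.11 and 0.380 CPM in the same order. The A375 value rests on 3 reads, and the ratio of HUES66 to A375 was 145 (counting interval 49.5 to 703). KIF12 was at 3.33 CPM in HUES66, with 3 reads in HEK293 and 1 read in A375. KIF5A and KIF5C, the neuronal kinesin-1 heavy chains, were at 40.3 and 195 CPM in HUES66, 17.3 and 141 CPM in HEK293 and 6.59 and 19.0 CPM in A375, while KIF5B was at 401, 738 and 492 CPM. HUES66 was at least 2-fold below both other lines in 3 kinesins (KIF6, KIF9 and KIFC3), against 13.2% of genes. KIF6 and KIF9, kinesin-9 motors of motile cilia, were at 1.67 and 3.98 CPM in HUES66, 5.23 and 10.3 CPM in HEK293 and 5.58 and 13.1 CPM in A375.

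A375 was at least 2-fold below both other lines in 9 kinesins (12.2% of genes). These were KIF1A, KIF5A, KIF5C, KIF12, KIF17, KIF26A, KIF26B, KIF27 and KIFC1. In A375 KIF12 and KIF26B had 1 read each, KIF26A had 3 and KIF17 had 4, so these calls lie near the floor. KIF26B had 9 reads in HEK293 and 14 in HUES66. A375 was at least 2-fold above both lines in 2 kinesins, KIFC2 and KIFC3 (12% of genes). KIFC3 was at 132 CPM in A375, 25.2 in HEK293 and 9.47 in HUES66, and A375 exceeded HUES66 by 14-fold (counting interval 12.1 to 16.1). KIFC2, a minus-end-directed kinesin found mainly in neurons, was at 28.0, 5.45 and 4.85 CPM, 5.78-fold higher in A375 than in HUES66 (4.63 to 7.24). KIFC1, the kinesin-14 of the spindle, was on the contrary lower in A375, at 52.1 CPM against 137 and 115.

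HEK293 was at least 2-fold above both other lines in KIF3A and KIF24 (7.72% of genes) and below both in KIF21B and KIF3C (8.26% of genes). KIF21B was at 4.89 CPM in HEK293, 69.0 in A375 and 75.3 in HUES66, and the HUES66 to HEK293 ratio was 15.4 (11.4 to 21.3). Its paralogue KIF21A was at 148, 79.5 and 173 CPM. KIF3A was at 116 CPM in HEK293, 56.3 in A375 and 35.2 in HUES66, and KIF24 at 25.8, 7.99 and 9.24 CPM. The division kinesins summed to 2456 CPM in HEK293, 2001 in HUES66 and 1457 in A375. Mitosis genes that are not kinesins summed to 6260, 4905 and 3228 CPM in the same order.

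**Figure D4:**
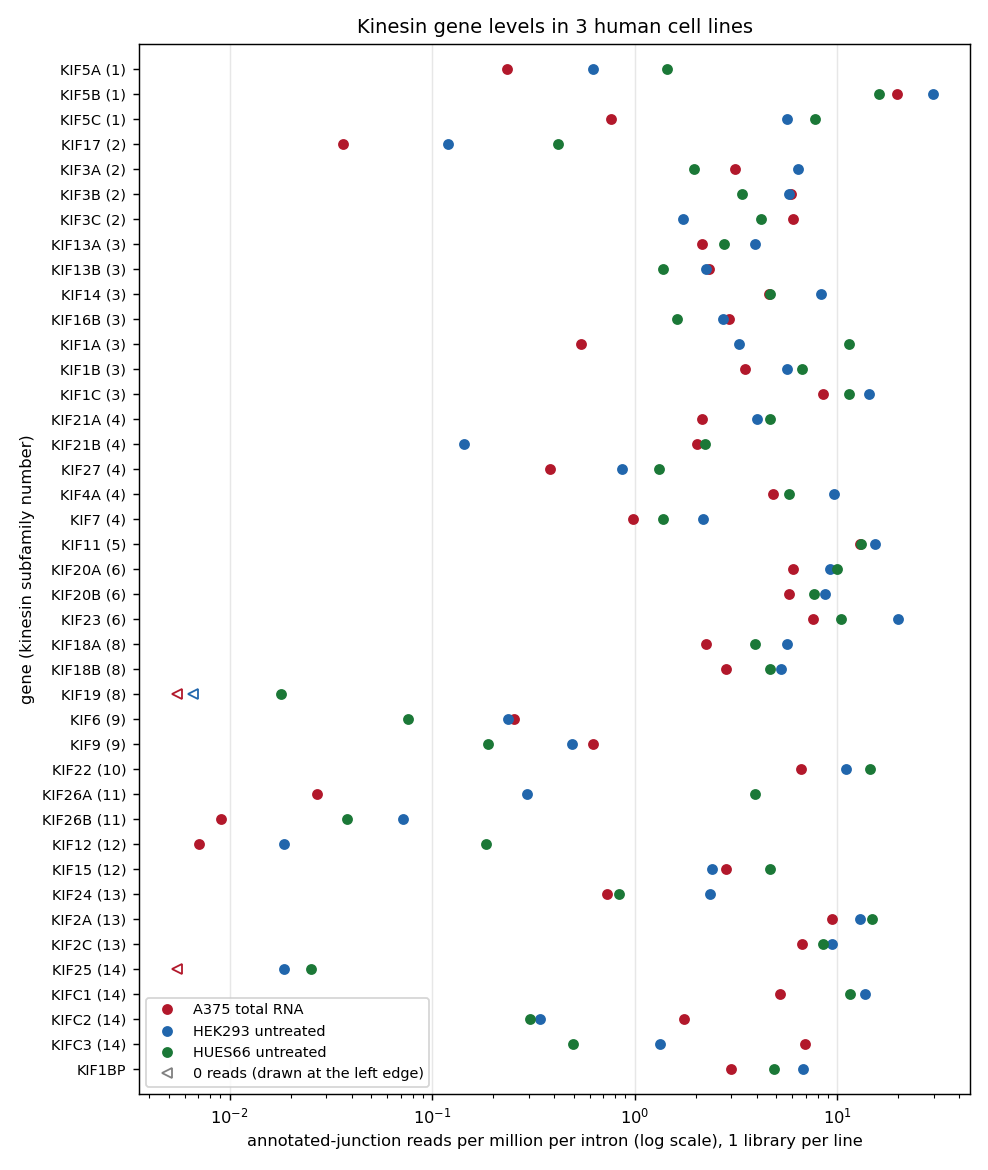
Level in CPM per intron (log axis) of 41 kinesin genes in A375, HEK293 and untreated HUES66, 1 library each, ordered by subfamily. KIF5B is the highest in each line, and KIF26A, KIF12 and KIF1A show the widest spreads between HUES66 and A375.

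Exon inclusion separated the lines in few kinesins. With at least 20 reads in both lines, a difference of at least 20 points and intervals apart, 2 of 36 kinesin exons were called for A375 against HUES66 (2.32% of all exons), 2 of 49 for HEK293 against HUES66 (2.26%) and 0 of 33 for A375 against HEK293 (1.39%). The 105 nt exon of KIF13A was included at 87.3% in HUES66 (95% Wilson interval 76.9% to 93.4%) and at 30.6% in HEK293 (18.0% to 46.9%). In A375 it was at 25% on 16 reads.

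The 39 nt exon of KIF13A had the reverse order. It was at 2.94% in HUES66 (0.810% to 10.1%), 29.6% in HEK293 (15.9% to 48.5%) and 100% in A375 total RNA (80.6% to 100%) on 16 reads. The A375 cytoplasmic library, with 65 reads, gave 93.8%, and the 14 treated HUES66 libraries gave 0% to 7.69%. The gene's own level differed less, at 108 CPM in HUES66, 152 in HEK293 and 83.8 in A375.

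The 9 nt exon of KIF3A was at 70.0% in HUES66, 57.1% in HEK293 and 33.3% in A375. The 21 nt exon of KIF21A was at 42.4%, 31.6% and 5.00%, and the A375 nuclear and cytoplasmic libraries gave 15.4% and 4.00%. Both exons were called for A375 against HUES66, with differences of -36.7 points for KIF3A and -37.4 points for KIF21A. Both also varied widely among the treated HUES66 libraries, as given above. RBFOX2 was at 127 CPM in HUES66, 105 in HEK293 and 83.4 in A375, and RBFOX3 at 22.0, 0.111 and 1.9 CPM. Their part in the exon values was not tested.

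Other exons differed by less. The 42 nt exon of KIF23 was at 28.1% in A375, 26.4% in HEK293 and 12.3% in HUES66. The 123 nt exon of KIF2C was at 74.0%, 77.2% and 88.1%, the 69 nt exon of KIF21A at 81.8%, 94.1% and 98.4%, and the 153 nt exon of KIF16B at 80.8%, 69.2% and 90%. In KIFC3 a 29 nt exon was included at 95% in A375, on 40 reads, and was not seen in untreated HUES66 among 5 reads, too few for the rule.

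The fourth comparison was between the nuclear and cytoplasmic RNA of A375, again 1 library each. Of 35 kinesins with at least 20 reads, 9 were at least 2-fold above the median gene in the nuclear fraction (24.6% of 12759 genes) and 2 at least 2-fold below it (15.8%). The median nuclear to cytoplasmic ratio of CPM was 1.38 for the kinesins and 0.929 for all genes, and 26 of 35 kinesins lay above the median gene. The 12 division kinesins all lay above it, with a median ratio of 1.43. The counting intervals of KIF18B (0.808 to 1.08), KIF22 (0.881 to 1.07) and KIF20A (0.908 to 1.08) nevertheless include the median gene. For the 22 other motors the median was 1.35, and 14 lay above. Among those that did not was KIF2A, which also acts on spindle microtubules, at a ratio of 0.913 (0.849 to 0.982). The KIF2A interval includes the median gene too.

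KIF5A had the highest ratio, 3.51 (95% counting interval 2.41 to 5.12), at 9.89 CPM in the nuclear and 2.82 CPM in the cytoplasmic fraction. KIF20B, a kinesin-6 of cytokinesis, followed at 2.66 (2.47 to 2.86), with 216 and 81.2 CPM, and KIFC2 at 2.59 (2.08 to 3.21). At the other end KIF1C, a kinesin-3 that moves RNA and Golgi cargo, was at 123 CPM in the nuclear and 313 CPM in the cytoplasmic fraction, a ratio of 0.392 (0.363 to 0.423). KIF3C, a neuronal kinesin-2, was at 34.3 and 79.9 CPM, a ratio of 0.429 (0.370 to 0.496), and KIF3B at 0.720 (0.631 to 0.819). KIF3A, which pairs with KIF3B or KIF3C in one motor, had a ratio of 1.9 (1.69 to 2.15), so the RNAs of these partners were divided differently between the fractions. KIF13A was at 0.964 and KIF21A at 2.00. Only spliced reads were counted, and unspliced nuclear RNA is not in these values. None of 27 kinesin exons with at least 20 reads in each fraction had inclusion intervals apart, against 2.35% of all exons.

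**Figure D5:**
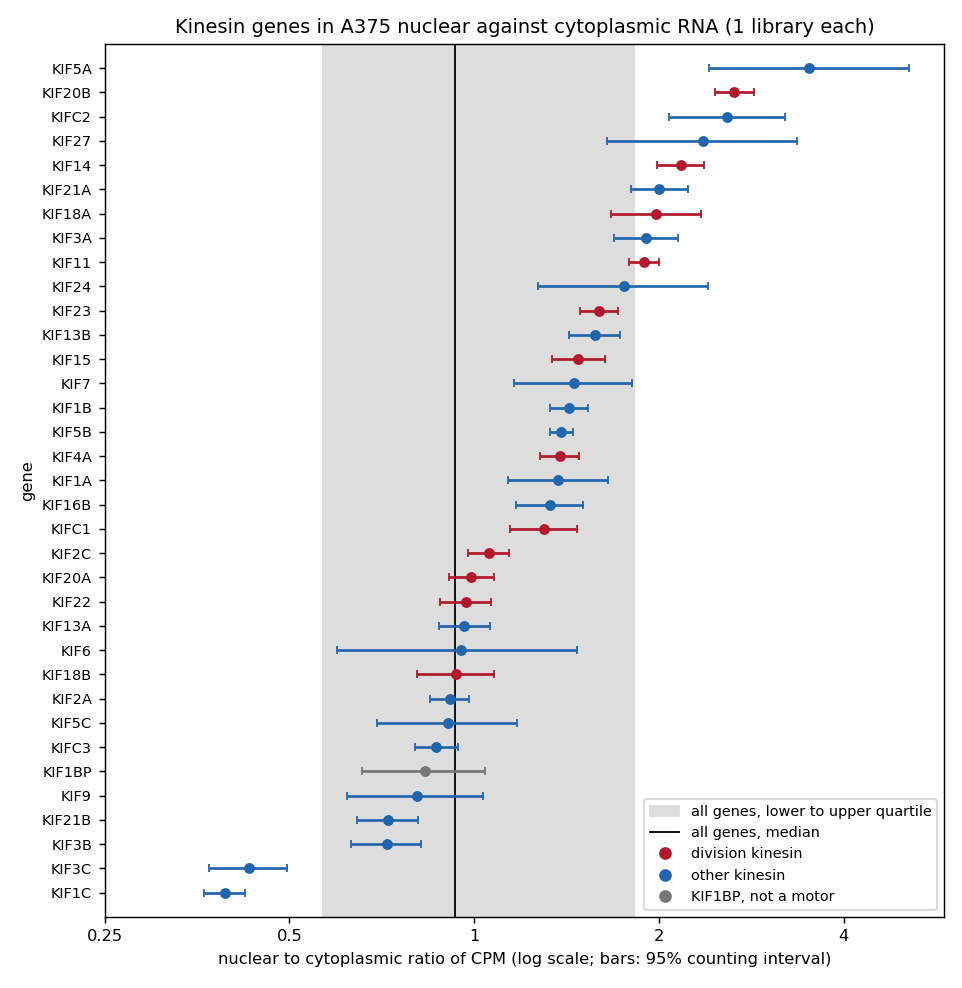
Nuclear to cytoplasmic ratio of CPM (log axis) of 35 kinesin genes in A375, with 95% counting intervals. The line marks the median of all genes at 0.929 and the band runs from their lower to their upper quartile, and KIF1C and KIF3C alone lie to the left of that band.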

How the data were processed

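Spliced reads were taken from 19 junction tables of human cell lines. The values are raw counts of reads per junction as deposited by the authors, with no normalization. Per the submitters' processing notes the tools were STAR 2.7.1 and SAMtools 1.9 with the hg38 build. The settings are not given in the sources used here. In the authors' deposited comparison tables the inclusion difference (control minus knockdown, a scale of its own) and the p-value columns were used as they stand, and 69 per-library columns were not used.

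Reads on GENCODE 29 junctions of 1 gene name (93.4% to 94.8% of each library) were summed per gene. KIF2A shares 4 introns with IPO11, and their 6234 reads were left out. Inclusion reads are the rounded mean of an exon's 2 inclusion junctions. Only exons averaging 20 reads per library or more, with pooled inclusion between 2% and 98%, entered the test. The counts of 14 treated libraries were fitted with edgeR 4.0.16 (quasi-likelihood F-test, TMM, filterByExpr) with the library set and the knockdown as terms, and 8 libraries with terms for knockdown and time. For exons, inclusion and skipping counts were paired by library. Benjamini-Hochberg adjustment covered all genes or exons, with a threshold of 0.05. Libraries of a set deviated together (median r = 0.775 over 18 pairs within sets, -0.280 over 55 between sets), and the set is a label of time and replicate. The fits were also run on simulated data with planted changes and no other differences between library sets. Real sets do differ, so that run does not measure error rates for these libraries. Alternatives used DESeq2 1.42.0 and limma 3.58.1, other filters, and each library left out in turn.

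The kinesin genes and the lists were chosen with earlier results of these data known. Values per library are given for genes and exons that passed (at most 8 in each direction for time), for KIF21A, KIF1B and KIF13A, for up to 8 further exons with an unadjusted p under 0.05 after total knockdown, for the 3 highest and 3 lowest ratios per line or fraction comparison, and for the 8 largest inclusion differences between lines. KIF5C and other genes named beyond these were chosen after their values were seen.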

Additional observations from a re-analysis of the deposited data

Results flagged for a closer look

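In 4 of 86 groups of 4 libraries examined, 1 library was flagged by Dixon's criterion, the gap to its nearest value as a share of the range. For values without ties, chance alone gives about 1 in 20. KIF12 was at 2.78 CPM in the 48 hr N-long library and at 1.59 to 1.76 CPM in the other N-long libraries. The 105 nt exon of KIF13A was included at 96.4% in the 24 hr replicate 2 N-long library and at 90.6% to 91.1% in the others. The 69 nt exon of KIF21A was at 92.9% in the same library and at 97.1% in the 24 hr replicate 2 N-short library, and at 100% in the other libraries of each group. Where the other values are all equal, as for this exon, the criterion flags any difference, however small.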

How the results depend on the processing

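No result reversed its direction under any alternative run. After total knockdown the number of kinesin genes called, 3 in the report, was 1 with no replicate block (a time point term alone, KIF1A remaining), and 1 to 5 when single libraries were left out. Leaving out the control at 96 hr gave 1. Leaving out the total knockdown at 24 hr gave 5, with KIF5A and KIF5C added. For N-long knockdown, with 0 called, it was 2 without a filter on low counts and 0 to 1 with libraries left out (KIF5C without the 24 hr replicate 2 N-long library). Against N-short it was 1 without that filter. The single kinesin exon called after total knockdown was called in the fit with no replicate block too. The count was 0 with limma, 0 with the 48 and 96 hr sets alone (chosen after seeing the data), and 0 to 1 with libraries left out. After N-long knockdown 1 exon was called with the untreated HUES66 library as the 24 hr control. The 8 exons called between 96 and 48 hr became 0 with limma, 5 with a minimum mean of 50 reads and 5 to 7 with libraries left out. The count was 5 without the 48 or 96 hr library of N-long or of total knockdown. Without the replicate block no other count of calls moved. The cause of these changes was not tested. Shares of all genes or exons called in the alternative runs are not given here or above. The counts therefore do not set kinesins apart from other genes. The 33 genes called between times were 26 to 30 with libraries left out and 25 with DESeq2, and the line and fraction counts stayed within 1.5 times. Of the 87 kinesin exons with reads, 19 met the minimum on reads and the range of pooled inclusion, and the others were not tested.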
